A study of Homo sapiens with 12 samples.

Results

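The 10 S100 genes S100A2, S100A4, S100A6, S100A7, S100A8, S100A9, S100A10, S100A11, S100A14 and S100A16 were described here, out of 60630 gene identifiers shared by the 2 deposited tables. They were found by gene name, with 1 row for each in each table. The list has no threshold, but it was chosen by names drawn up with the measured TPM and RVT differences of these libraries known. For these genes, values, differences and calls are therefore a description, and no p-value is given for them. The list leaves out 11 further S100 genes, which are described after it.

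S100 proteins are small calcium-binding proteins with paired EF-hand loops, and most work as dimers. Inside cells they bind annexins, myosin or p53. Several are released from stressed epithelia and then act as alarmins, signalling through receptors such as RAGE and TLR4. In skin, S100A7, S100A8 and S100A9 are known as antimicrobial and inflammation-linked members.

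The libraries come from SZ95 sebocytes, an immortalised human sebaceous gland line, in 4 groups of 3. The groups are LA+RVT, LA, PGN+RVT and PGN. Every group received a stimulus, so no untreated cells are among them, and all share the same cell line. The series title gives RVT as resveratrol, and LA and PGN, which the labels do not spell out, are read here as linoleic acid and peptidoglycan. The labels give neither doses nor times. The unit is TPM, reads scaled to transcript length and to the library's total. It keeps no depth, so the depth is unknown and no counting interval is given. In bulk RNA, fewer cells of a type and less RNA per cell cannot be told apart.

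The number of genes at 1 TPM or above ran from 14489 to 15452 per library. Of 9 sebocyte markers, 7 averaged at least 1 TPM in LA+RVT and in LA cells, and 6 did in PGN+RVT and in PGN cells. Their sum was 1663 to 1705 TPM in LA+RVT and 1440 to 1474 TPM in LA libraries, which did not overlap, and 1847 to 1921 TPM in PGN+RVT and 1870 to 1995 TPM in PGN libraries. KRT7 was called higher and MUC1 lower with RVT under LA, and FADS2 higher and PPARG lower under PGN. KRT7 led the sum and the wax ester synthase gene AWAT2 was listed at 0 in all 12 libraries. Myeloid cells are the other main source of S100A8 and S100A9. Their 10 markers summed to 1.80 to 3.44 TPM in LA+RVT libraries and 3.42 to 3.54 TPM in LA libraries. They summed to 3.16 to 3.83 TPM in PGN+RVT libraries and 3.36 to 6.30 TPM in PGN libraries, and MPO was listed at 0 throughout. CD14 alone of these averaged at least 1 TPM, and it was not called in either arm. Basal epithelial markers, mostly KRT5, summed to 151 to 154 TPM in LA+RVT and 190.1 to 198 TPM in LA libraries, and to 366 to 374 TPM in PGN+RVT and 441 to 464 TPM in PGN libraries. KRT5 was called lower with RVT under both stimuli. TP63 was called lower under PGN only (2.61 TPM in PGN+RVT and 5.29 TPM in PGN cells), and KRT14 was not called. Keratinocyte differentiation markers summed to 41.8 to 49.9 TPM in LA+RVT and 36.2 to 39.3 TPM in LA libraries, and to 39.3 to 42.1 TPM in PGN+RVT and 53.5 to 62.7 TPM in PGN libraries. Of these, IVL was called lower with RVT under PGN and not under LA, and KRT10 was not called. Fibroblast markers summed to 5.93 to 7.33 TPM in LA+RVT, 6.11 to 7.62 TPM in LA, 7.71 to 9.63 TPM in PGN+RVT and 8.32 to 11.6 TPM in PGN libraries, and DCN was listed at 0 in all 12. Among them COL1A1 alone averaged at least 1 TPM, and it was not called. The part of these markers in the S100 differences was not tested.

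All 10 genes lie on chromosome 1 of GRCh38 within 1.634 Mb, as placed by GENCODE 29. S100A10 (ENSG00000197747, 151982915 to 151994390) and S100A11 (ENSG00000163191, 152032506 to 152047907) stand at one end. A gap of 1309.9 kb with filaggrin and cornified envelope genes separates them from the other 8. There follow S100A9 (ENSG00000163220, 153357854 to 153361027), S100A8 (ENSG00000143546, 153390032 to 153391188) and S100A7 (ENSG00000143556, 153457744 to 153460701). The remaining genes are S100A6 (ENSG00000197956, 153534599 to 153536244), S100A4 (ENSG00000196154, 153543613 to 153550136), S100A2 (ENSG00000196754, 153561108 to 153567890), S100A16 (ENSG00000188643, 153606886 to 153613145) and S100A14 (ENSG00000189334, 153614255 to 153616986). S100A9 is on the plus strand and the other 9 are on the minus strand. Their coding sequences are 273 to 345 bases long, and the 45 pairs of genes share 44.5% to 69.3% of aligned coding bases (median 51.2%). S100A2 and S100A4 are the closest pair, and S100A8 and S100A9 share 49.4%. S100A7 shares 96.1% of coding bases with S100A7A, which was listed at 0 in every library, so the split of reads between that pair is uncertain. S100A11 has pseudogene copies, the named ones of which reached at most 1.21 TPM in a library. An exon of BX470102.1 overlaps S100A6 on the other strand and reached at most 2.03 TPM. No source used here says whether strand was used in counting.

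RefSeq start regions (250 bases before to 50 after a start, GRCh38.p14) were matched by symbol for all 10 genes, in 14 windows, some of which overlap. The sequences shown are of the 4 genes that carry the letters TATAAA, among them the alarmins S100A7, S100A8 and S100A9. The window of S100A6, the most abundant of the 10 in 3 of the 4 groups, is shown as well. It lacks TATAAA, but the near match TATAAG, which was not searched for, stands at a similar distance before the start. The windows are chr1:153357604-153357903 (plus strand) for S100A9, chr1:153391024-153391323 (minus strand) for S100A8 and chr1:153460602-153460901 (minus strand) for S100A7. Those of S100A4 and S100A6 are chr1:153545757-153546056 and chr1:153535942-153536241, both on the minus strand. Each is written 5′ to 3′ along its gene, and capitals mark every match to the 6 motifs searched on both strands.
S100A9: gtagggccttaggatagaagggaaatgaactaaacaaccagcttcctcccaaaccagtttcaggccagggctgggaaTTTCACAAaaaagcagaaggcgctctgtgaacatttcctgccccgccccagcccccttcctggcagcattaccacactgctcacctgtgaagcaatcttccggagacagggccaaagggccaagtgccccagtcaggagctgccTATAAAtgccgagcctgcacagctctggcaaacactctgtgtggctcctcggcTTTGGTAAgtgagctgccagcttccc
S100A8: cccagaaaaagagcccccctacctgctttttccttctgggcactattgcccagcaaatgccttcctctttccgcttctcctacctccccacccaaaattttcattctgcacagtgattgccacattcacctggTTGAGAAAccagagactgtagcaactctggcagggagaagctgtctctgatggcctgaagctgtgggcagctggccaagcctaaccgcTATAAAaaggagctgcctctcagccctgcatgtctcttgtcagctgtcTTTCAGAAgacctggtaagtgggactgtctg
S100A7: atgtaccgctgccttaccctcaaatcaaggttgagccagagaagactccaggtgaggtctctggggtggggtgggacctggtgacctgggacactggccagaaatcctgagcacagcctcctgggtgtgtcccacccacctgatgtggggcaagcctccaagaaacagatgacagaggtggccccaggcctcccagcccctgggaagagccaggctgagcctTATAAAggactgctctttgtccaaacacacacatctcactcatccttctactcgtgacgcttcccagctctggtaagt
S100A4: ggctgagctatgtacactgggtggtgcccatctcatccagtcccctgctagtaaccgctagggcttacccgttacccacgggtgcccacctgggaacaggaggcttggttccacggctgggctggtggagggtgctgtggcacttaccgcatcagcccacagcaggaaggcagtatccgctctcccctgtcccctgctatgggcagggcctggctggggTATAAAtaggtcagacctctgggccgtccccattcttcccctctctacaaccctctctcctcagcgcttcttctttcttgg
S100A6: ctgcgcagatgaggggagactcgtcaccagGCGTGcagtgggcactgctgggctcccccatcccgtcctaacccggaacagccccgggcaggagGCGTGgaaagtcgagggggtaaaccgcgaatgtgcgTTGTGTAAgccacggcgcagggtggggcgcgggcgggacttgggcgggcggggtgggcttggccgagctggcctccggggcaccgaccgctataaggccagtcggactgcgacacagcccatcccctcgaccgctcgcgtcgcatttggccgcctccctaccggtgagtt

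TATAAA was found anywhere in 5 of the 14 windows, those of S100A4, S100A7, S100A9 and a pair of S100A8 windows, and in 11.6% of all 34941 RefSeq windows. In the windows shown it starts 28 to 31 bases before the start. The other S100A8 window overlaps the one shown and holds the same TATAAA, 126 bases before its own start. The C/EBP letters TTNNGNAA were found in 7 of the 14 windows, those of S100A6, S100A8, S100A9, S100A11 and S100A16 (36.9% of all windows). These 7 windows come from 5 genes, and the S100A8 windows among them overlap and hold the same TTGAGAAA. The aryl hydrocarbon receptor core GCGTG was in 5 of the 14 windows, of S100A2, S100A6, S100A10, S100A11 and S100A16 (36.5% of all windows). The AP-1 letters TGANTCA were in 1 window, of S100A2 (7.72% of all), and an NF-kB motif was in 1 window, of S100A14 (5.90%). The STAT letters TTCNNNGAA were in none of the 14 windows (7.66% of all). A match to letters describes the window and does not show that a factor binds there.

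By level, the 10 genes fall into 3 tiers. S100A6, S100A11 and S100A10 had 1332 to 2826 TPM in every library, S100A14, S100A16, S100A2 and S100A9 had 187 to 922 TPM, and S100A4, S100A8 and S100A7 had 0 to 61.8 TPM. Together the 10 genes took 0.627% to 0.645% of all TPM in LA+RVT libraries, against 0.682% to 0.706% in LA libraries. They took 0.856% to 0.883% in PGN+RVT libraries and 0.889% to 0.914% in PGN libraries. The share was lower with RVT under either stimulus, and the groups of an arm did not overlap. It follows the most abundant genes and does not describe each of the 10. Under LA, S100A6 alone fell from a mean of 2078 TPM in LA to 1394 TPM in LA+RVT cells. That is more than the mean sum of the 10 fell, from LA libraries at 6795 to 7038 TPM to LA+RVT libraries at 6241 to 6426 TPM. S100A6 ranked highest of the 10 in the LA, PGN+RVT and PGN groups. In LA+RVT cells S100A11 came first, and S100A10 and S100A6 came next with overlapping ranges. Among other neighbours in the order, S100A16 and S100A2 overlapped in PGN+RVT cells and S100A14 and S100A16 in PGN cells. All other neighbours had separate ranges. LA and PGN levels come from tables made with different annotations, so they are set side by side and were not tested. S100A2 stood at 209 TPM in LA+RVT and 233 TPM in LA cells, beside 653 TPM in PGN+RVT and 856 TPM in PGN cells.

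**Figure D1:**
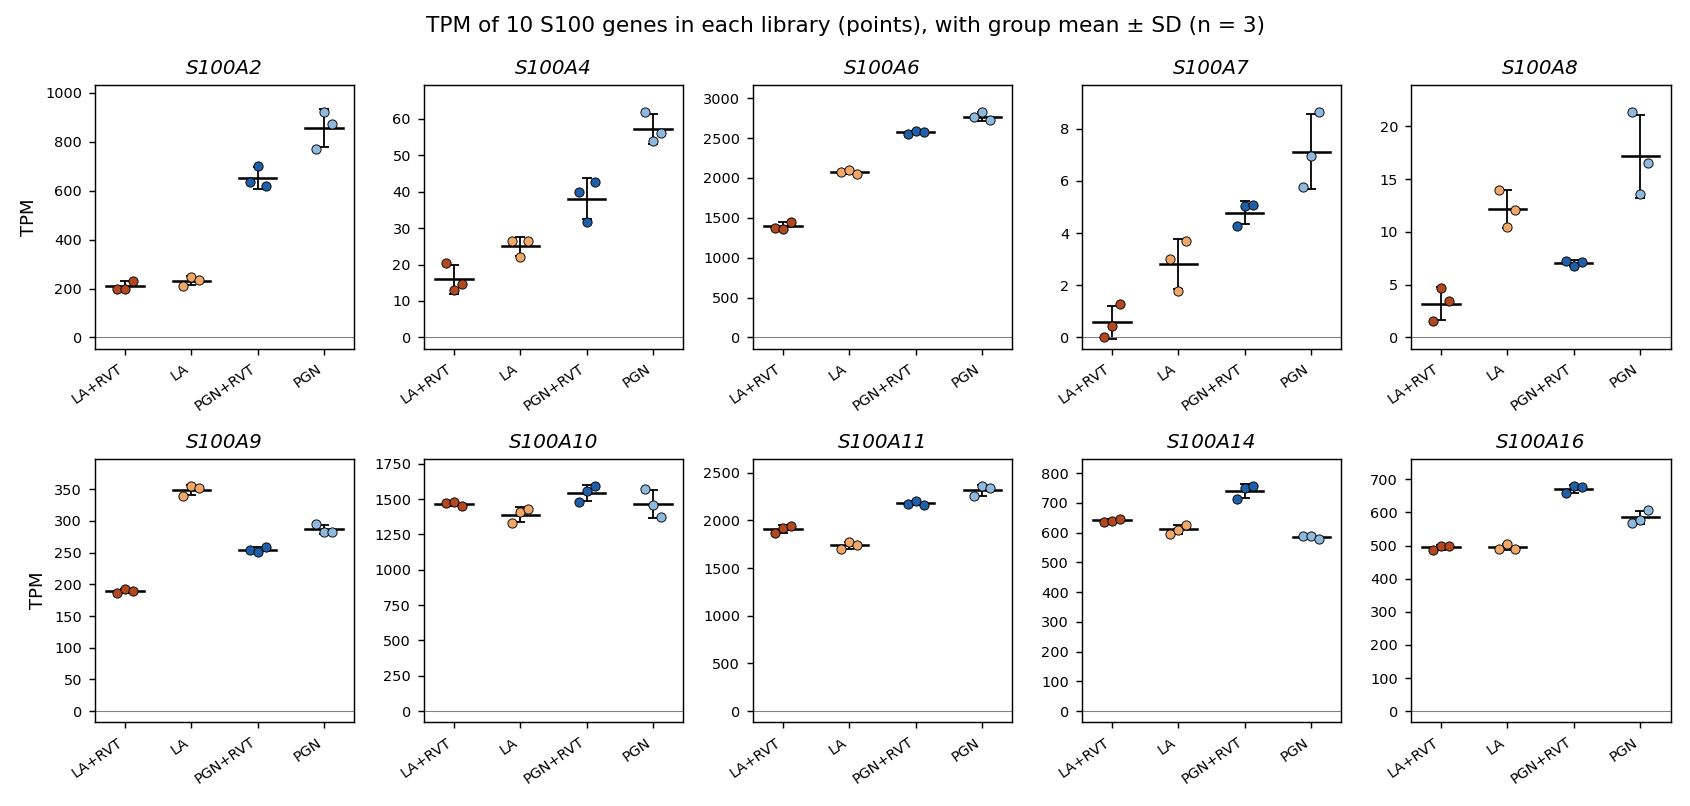
TPM of each of the 10 S100 genes (y axes, linear, each with its own scale) in the LA+RVT, LA, PGN+RVT and PGN groups. Points are libraries, lines are means and bars are SD (n = 3). S100A9 is at 187 to 193 TPM in LA+RVT libraries and 339.9 to 355 TPM in LA libraries, and S100A14 is at 714 to 757 TPM in PGN+RVT libraries and 579.8 to 589.9 TPM in PGN libraries.

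The effect of RVT was measured within each stimulus, as LA+RVT minus LA and as PGN+RVT minus PGN, on the log2(TPM + 1) scale, which understates changes of low genes. A gene is called where the adjusted p of limma, fitted across all genes of the table with Benjamini-Hochberg adjustment, was under 0.05. Under LA, 1 of the 10 genes was higher and 5 were lower with RVT, where 10.7% of all 15409 tested genes were higher and 5.07% lower (15.7% called). Under PGN, 2 were higher and 5 lower, where 10.6% of 14622 genes were higher and 4.92% lower (15.6% called). The median log2 difference of the 10 was -0.37 under LA, beside 0.036 over all genes, and -0.14 under PGN, beside 0.064. With library medians equalised, the genes called over the whole table split into 1041 higher and 1080 lower under LA (1645 and 781 as deposited) and into 850 higher and 1020 lower under PGN (1557 and 720 as deposited). Because the genes were listed with these differences known, the counts describe the list and nothing is read from them. All 10 passed the filter of a mean of 1 TPM in both arms. S100A7 passed it in the LA arm only through the LA libraries.

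S100A9 and S100A8 are the subunits of calprotectin, a heterodimer that withholds zinc and manganese from microbes. S100A9 had 187, 193 and 189 TPM in LA+RVT libraries, against 339.9, 355 and 352 TPM in LA libraries. Every LA+RVT library lay far below every LA library, with a CV of 1.67% in LA+RVT and 2.34% in LA. S100A9 fell with RVT under LA by a log2 difference of -0.88 ± 0.028 (SE of the limma fit, here and below). Under PGN it had 255, 251 and 258 TPM in PGN+RVT libraries, against 295, 282 and 282 TPM in PGN libraries. The groups did not overlap there either, but the distance was smaller, at -0.17 ± 0.037. This second call was lost without PGN replicate 2 or any 1 of the PGN+RVT replicates (log2 differences -0.18 to -0.16) and in a fit with the replicate number as a block. Taking one RVT effect from the other, that under PGN was less negative by 0.71 ± 0.043.

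S100A8 had 1.56, 4.64 and 3.42 TPM in LA+RVT libraries, against 14.01, 10.5 and 12.04 TPM in LA libraries. It had 7.28, 6.76 and 7.17 TPM in PGN+RVT libraries, against 21.4, 13.6 and 16.5 TPM in PGN libraries. The RVT libraries lay below those without RVT in either arm. S100A8 fell with RVT by -1.71 ± 0.28 under LA and by -1.15 ± 0.15 under PGN on the log2 scale, and no alternative ended these calls. The difference between these effects was 0.57 ± 0.35 and was not called. The ratio of S100A9 to S100A8 TPM was 120, 41.7 and 55.3 in LA+RVT libraries, against 24.3, 33.9 and 29.2 in LA libraries. It was 35.001 to 37.1 in PGN+RVT libraries, against 13.8 to 20.7 in PGN libraries. S100A9 RNA was thus the more abundant in all 12 libraries, and its excess was larger with RVT in each arm. The highest ratio is that of the LA+RVT library with the lowest S100A8 value.

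**Figure D2:**
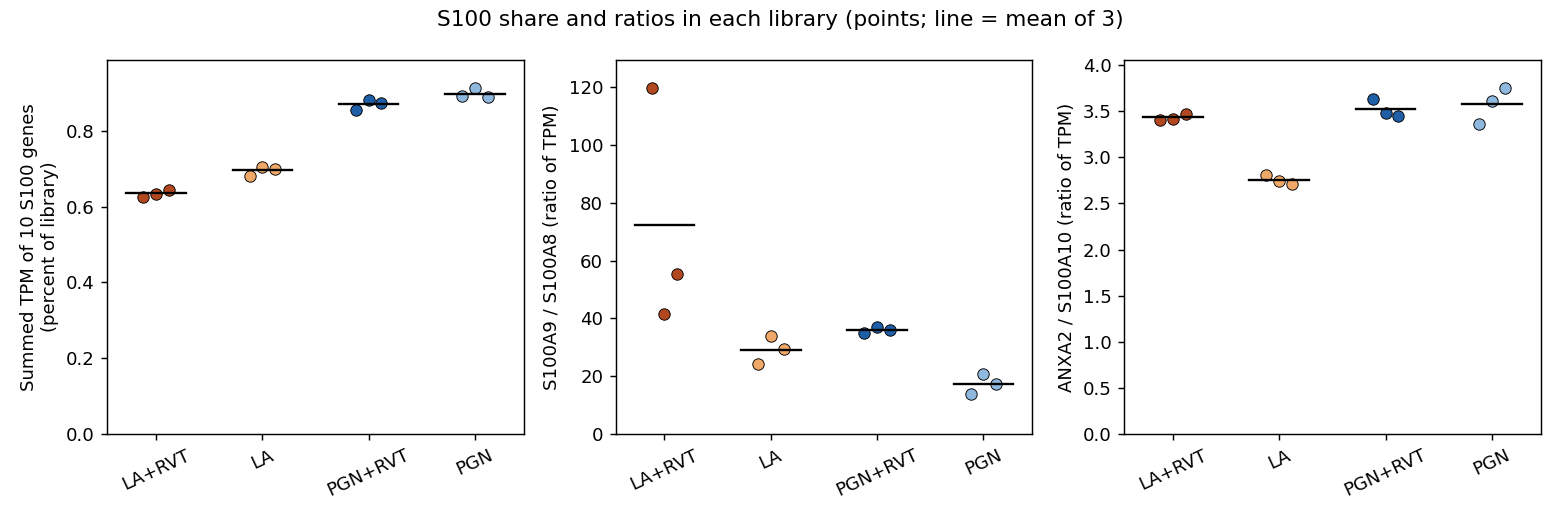
Left, summed TPM of the 10 S100 genes as a percent of all TPM in each library. Middle and right, the ratios of S100A9 to S100A8 and of ANXA2 to S100A10 TPM. Points are libraries of the LA+RVT, LA, PGN+RVT and PGN groups and lines are means of 3. The ANXA2 ratio is 3.40 to 3.48 in LA+RVT libraries and 2.71 to 2.81 in LA libraries, with no such gap between PGN+RVT and PGN libraries.

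S100A7, psoriasin, is an antibacterial protein of skin epithelia. It was listed at 0, 0.450 and 1.27 TPM in LA+RVT libraries, against 3.02, 1.79 and 3.68 TPM in LA libraries. It had 4.27, 5.03 and 5.06 TPM in PGN+RVT libraries, against 5.76, 6.97 and 8.64 TPM in PGN libraries. The groups of an arm did not overlap, but all values were low. The spread was widest under LA, with a CV of 112.3% in LA+RVT and 33.9% in LA, beside 9.35% in PGN+RVT and 20.3% in PGN. S100A7 fell under LA (-1.33 ± 0.34), a call that was lost in 8 of 10 alternatives, among them leaving out LA replicate 1, 2 or 3 or LA+RVT replicate 1 or 2 (log2 differences -1.54 to -1.05) and the block. With a pseudocount of 0.1 the difference was -2.74. Under PGN the difference of -0.48 ± 0.15 was not called, and it was called without PGN replicate 1 (-0.60). The difference between the effects, 0.85 ± 0.39, was called only without LA+RVT replicate 3 (1.16).

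S100A6, calcyclin, binds the ubiquitin-ligase adaptor CACYBP and annexins. It had 1373, 1355 and 1453 TPM in LA+RVT libraries, against 2079, 2103 and 2052 TPM in LA libraries. All 3 LA+RVT libraries lay well below the LA libraries, and the gene ranked 83 to 88 among all genes in LA+RVT libraries, against 54 to 56 in LA libraries. S100A6 fell under LA by -0.58 ± 0.028. It had 2549, 2590.2 and 2570.0 TPM in PGN+RVT libraries, against 2758, 2826 and 2721 TPM in PGN libraries. The groups were close but separate, at -0.11 ± 0.026. That call was lost without PGN replicate 2 or any 1 of the PGN+RVT replicates (-0.11 to -0.092), under the block and without a filter on low genes. The RVT effect under PGN was less negative than that under LA by 0.47 ± 0.038.

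S100A4, metastasin, binds non-muscle myosin. It had 20.5, 12.9 and 14.6 TPM in LA+RVT libraries, against 26.5, 22.0 and 26.5 TPM in LA libraries. It had 39.9, 31.7 and 42.5 TPM in PGN+RVT libraries, against 61.8, 53.7 and 56.2 TPM in PGN libraries. Every RVT library was below every library without RVT in its arm. S100A4 fell by -0.63 ± 0.17 under LA and by -0.59 ± 0.11 under PGN, and the effects differed by 0.049 ± 0.22, which was not called. The LA call was lost without LA replicate 1, 2 or 3 or LA+RVT replicate 2 or 3 (-0.72 to -0.50), and both calls were lost without a filter on low genes.

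S100A2, a nuclear S100 protein of basal epithelia that binds p53, had 196, 198 and 232 TPM in LA+RVT libraries, against 212, 249.2 and 236 TPM in LA libraries. The LA+RVT and LA ranges overlapped, and the difference of -0.16 ± 0.081 was not called. It had 637, 701 and 619 TPM in PGN+RVT libraries, against 773, 922 and 874 TPM in PGN libraries, with no overlap. S100A2 fell under PGN by -0.39 ± 0.074. That call was lost without PGN+RVT replicate 1 or 3 (-0.37 and -0.35) and without a filter. The difference between the effects, -0.23 ± 0.12, was not called.

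S100A14, an epithelial member that binds calcium weakly, had 637, 639 and 646 TPM in LA+RVT libraries, against 597, 609 and 627 TPM in LA libraries. The groups did not overlap, but the difference of 0.070 ± 0.024 was not called. It had 714, 751 and 757 TPM in PGN+RVT libraries, against 589, 589.9 and 579.8 TPM in PGN libraries, and rose under PGN by 0.34 ± 0.034 (a mean 26.4% higher). S100A16, its neighbour 1.1 kb away, had 486, 499 and 499 TPM in LA+RVT libraries, against 490.4, 506 and 491 TPM in LA libraries. These ranges overlapped, with a difference of -0.0040 ± 0.023. It had 658, 681 and 676 TPM in PGN+RVT libraries, against 569, 579 and 607 TPM in PGN libraries, and rose under PGN by 0.20 ± 0.036. The S100A16 call was lost without PGN replicate 2 or PGN+RVT replicate 2 or 3 (0.19 each) and with library medians equalised (0.14). The RVT effect under PGN exceeded that under LA by 0.27 ± 0.040 for S100A14 and by 0.20 ± 0.041 for S100A16, and both differences were called.

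S100A11 binds annexin A1. It had 1864, 1921 and 1939 TPM in LA+RVT libraries, against 1702, 1772 and 1744 TPM in LA libraries. It had 2170.3, 2205 and 2162 TPM in PGN+RVT libraries, against 2251, 2362 and 2334 TPM in PGN libraries. The RVT libraries were above the others under LA and below them under PGN. S100A11 rose under LA by 0.13 ± 0.023, a call lost with library medians equalised (0.086) and without a filter. The difference of -0.087 ± 0.029 under PGN was not called, except without PGN replicate 1 (-0.11). The effects differed by -0.22 ± 0.036, which was called.

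S100A10, the annexin A2 partner that does not bind calcium, had 1475, 1479 and 1448 TPM in LA+RVT libraries, against 1332, 1409 and 1430.0 TPM in LA libraries. It had 1479, 1558 and 1594 TPM in PGN+RVT libraries, against 1572, 1459 and 1372 TPM in PGN libraries. The LA+RVT libraries lay above the LA libraries, while the PGN+RVT and PGN ranges overlapped. Neither difference, 0.079 ± 0.029 under LA and 0.075 ± 0.054 under PGN, was called. Its partner ANXA2 rose under LA, with a mean of 5039 TPM in LA+RVT and 3827 TPM in LA cells (log2 difference 0.40 ± 0.017, limma adjusted p = 9.25e-05). ANXA2 averaged 5431 TPM in PGN+RVT and 5238 TPM in PGN cells (0.052 ± 0.024, limma adjusted p = 0.189). The ANXA2 to S100A10 ratio was 3.43 ± 0.037 in LA+RVT and 2.75 ± 0.049 in LA cells, and 3.52 ± 0.0997 in PGN+RVT and 3.58 ± 0.198 in PGN cells (SD, n = 3 each).

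**Figure D3:**
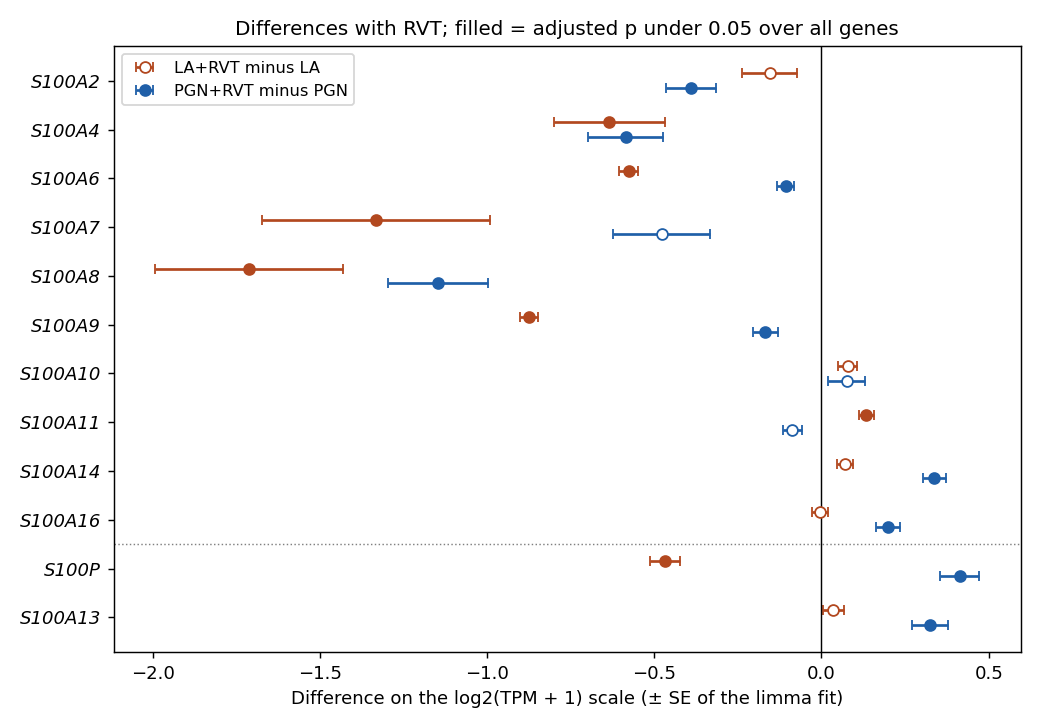
Log2 differences with RVT (x axis, log2(TPM + 1) scale, bars are SE of the limma fit) for the 10 S100 genes and, below the dotted line, S100P and S100A13. Each gene has a point for LA+RVT minus LA and one for PGN+RVT minus PGN, filled where the adjusted p over all genes was under 0.05. S100A8 is lowest under either stimulus, and S100P lies at -0.47 under LA and 0.41 under PGN.

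The difference of the RVT effects, fitted over all 12 libraries, was called for 5 of the 10 genes, where 14.8% of 15177 genes were called. S100A6, S100A9, S100A14 and S100A16 were among the 7.73% of genes with a higher effect under PGN, and S100A11 was among the 7.03% with a lower one. These 5 calls were kept in all 17 alternatives run for each. S100A2, S100A4, S100A7, S100A8 and S100A10 were not called. The direction of the listed effects was lower under both stimuli for S100A2, S100A4, S100A6, S100A7, S100A8 and S100A9.

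Of the 11 other S100 genes, 3 passed the filter under LA and 4 under PGN. S100P, which binds RAGE and ezrin, had 547, 559.9 and 588 TPM in LA+RVT libraries, against 738, 822 and 786 TPM in LA libraries. It had 824, 893 and 856 TPM in PGN+RVT libraries, against 597, 693 and 644 TPM in PGN libraries. S100P lies on another chromosome, and its groups separated in opposite directions. It fell under LA (-0.47 ± 0.045, limma adjusted p = 0.00136) and rose under PGN (0.41 ± 0.059, limma adjusted p = 0.00516), and the effects differed by 0.88 ± 0.080 (limma adjusted p = 4.43e-05). S100A13, which takes part in the release of FGF1, averaged 117 ± 2.21 TPM in LA+RVT and 114 ± 2.92 TPM in LA cells (SD, n = 3; limma adjusted p = 0.507). It rose under PGN, with 137 ± 5.17 TPM in PGN+RVT and 109 ± 5.86 TPM in PGN cells (SD, n = 3; log2 difference 0.33 ± 0.055, limma adjusted p = 0.00960), a call lost with library medians equalised (0.27). S100A3, a hair cuticle protein, averaged 3.67 TPM in LA+RVT, 4.26 TPM in LA, 6.64 TPM in PGN+RVT and 4.36 TPM in PGN cells and was not called (limma adjusted p = 0.900 under LA and 0.0824 under PGN). S100A5 averaged 1.39 TPM in PGN+RVT and 1.02 TPM in PGN cells (limma adjusted p = 0.553). S100A7A, S100A7L2 and S100G were listed at 0 in all 12 libraries, and S100A1, S100A12, S100B and S100Z averaged below 1 TPM in each group.

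Of 9 receptors and surface partners of S100 proteins, 8 were tested under LA (1 higher, 0 lower) and 7 under PGN (2 higher, 0 lower). Their median log2 difference was -0.071 under LA, beside 0.036 over all genes, and 0.099 under PGN, beside 0.064. Among all tested genes, 10.7% were higher and 5.07% lower under LA, and 10.6% were higher and 4.92% lower under PGN. AGER, which encodes RAGE, averaged 6.44 TPM in LA+RVT and 7.82 TPM in LA cells (limma adjusted p = 0.419), and 3.69 TPM in PGN+RVT and 2.28 TPM in PGN cells. It rose under PGN by 0.51 ± 0.12 (limma adjusted p = 0.0329), a call lost in 9 of 10 alternatives, among them leaving out any 1 of the 6 libraries (0.44 to 0.56). MCAM, an adhesion molecule that binds S100A8 and S100A9, rose under PGN (57.3 TPM in LA+RVT and 52.6 TPM in LA cells, 53.7 TPM in PGN+RVT and 33.5 TPM in PGN cells, log2 difference 0.66 ± 0.11, limma adjusted p = 0.00913). TLR4 stood at 1.64 TPM in LA+RVT and 1.91 TPM in LA cells, and at 3.22 TPM in PGN+RVT and 3.03 TPM in PGN cells. Its ranges overlapped within each arm, and it was not called (limma adjusted p = 0.566 under LA and 0.729 under PGN). ALCAM rose under LA (0.16 ± 0.034, limma adjusted p = 0.0247), a call lost without LA replicate 2 or 3 or LA+RVT replicate 1 or 2 (0.14 to 0.16), under the block and with library medians equalised (0.11).

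Of 12 intracellular partners, 3 were higher and 1 lower under LA, and 1 was higher and 1 lower under PGN. Their median log2 difference was 0.045 under LA and 0.068 under PGN, beside 0.036 and 0.064 over all genes. The shares called over all genes were 10.7% higher and 5.07% lower under LA, and 10.6% and 4.92% under PGN. The 3 higher under LA were ANXA2, MYH9 and SUGT1, a chaperone adaptor that S100A6 binds, whose LA call (0.21 ± 0.043, limma adjusted p = 0.0224) was lost without LA replicate 1 or 3 or LA+RVT replicate 2 (0.17 to 0.20) and with library medians equalised (0.16). MYH9, the myosin heavy chain that S100A4 binds, rose under LA (454 TPM in LA+RVT and 394 TPM in LA cells, 0.20 ± 0.025, limma adjusted p = 0.00316). It fell under PGN (430.1 TPM in PGN+RVT and 518 TPM in PGN cells, -0.27 ± 0.032, limma adjusted p = 0.00273). ANXA1, the partner of S100A11, went the other way in each arm (-0.10 ± 0.021 under LA, limma adjusted p = 0.0231, and 0.18 ± 0.044 under PGN, limma adjusted p = 0.0368). The ANXA1 calls were lost in 7 and 8 of 11 alternatives. They include leaving out any library of the LA arm but LA+RVT replicate 1 (-0.11 to -0.090) and any of the PGN arm but PGN replicate 1 (0.15 to 0.19).

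Of 16 genes that encode inducers, their receptors or transcription factors of epithelial S100 genes, 14 were tested in each arm. Under LA 1 was higher and 1 lower, and under PGN 2 were higher and 5 lower. Over all genes, 10.7% were higher and 5.07% lower under LA, and 10.6% and 4.92% under PGN. The median log2 difference was -0.0040 under LA and -0.15 under PGN, beside 0.036 and 0.064 over all genes. CEBPB, a factor known to bind the S100A8 and S100A9 promoters in myeloid cells, rose under LA, with 70.3 TPM in LA+RVT and 36.6 TPM in LA cells (0.92 ± 0.11, limma adjusted p = 0.00274). It fell under PGN, with 67.4 TPM in PGN+RVT and 126 TPM in PGN cells (-0.88 ± 0.15, limma adjusted p = 0.0111). S100A8 and S100A9 were lower with RVT in both arms, and a link of CEBPB to them in these cells was not tested. IL1A, a keratinocyte and sebocyte alarmin cytokine, fell under LA (-0.36 ± 0.062, limma adjusted p = 0.0110) and more steeply under PGN (-3.95 ± 0.11, limma adjusted p = 5.73e-06), and these effects differed (-3.58 ± 0.13, limma adjusted p = 4.99e-08). The fall of S100A9 was larger under LA, and no link between IL1A and the S100 genes was tested. IL1B, the other IL-1 cytokine of the list, fell under PGN to 8.52 TPM in PGN+RVT, against 91.0 TPM in PGN cells (-3.28 ± 0.094, limma adjusted p = 5.73e-06). NFKB1, a subunit of NF-kB, also fell under PGN (-0.64 ± 0.058, limma adjusted p = 0.000857). NFKBIZ, a coactivator of NF-kB, fell under PGN (-0.79 ± 0.087, limma adjusted p = 0.00192) and stood at -0.21 ± 0.090 under LA (limma adjusted p = 0.179). The 2 higher under PGN were IL17RC (0.50 ± 0.10, limma adjusted p = 0.0196) and JUNB (0.21 ± 0.054, limma adjusted p = 0.0398). Their calls were lost in 5 and 8 of 11 alternatives. IL22RA1 was not called in either arm, but its effect was higher under PGN than under LA (0.44 ± 0.0999, limma adjusted p = 0.0129).

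Between S100A10 and S100A14 lie 71 further annotated genes that are not S100 genes, 47 of them protein-coding. Under LA 9 were tested, of which 3 were higher and 0 lower, with a median log2 difference of 0.20, beside 10.7% higher, 5.07% lower and a median of 0.036 over all genes. Under PGN 10 were tested, of which 2 were higher and 6 lower, with a median of -0.73, beside 10.6% higher, 4.92% lower and a median of 0.064 over all genes. SPRR1B, a cornified envelope precursor, rose under LA (29.4 TPM in LA+RVT and 19.0 TPM in LA cells, 0.61 ± 0.080, limma adjusted p = 0.00421). It fell under PGN (84.3 TPM in PGN+RVT and 156 TPM in PGN cells, -0.89 ± 0.064, limma adjusted p = 0.000372), and the effects differed by -1.50 ± 0.11 (limma adjusted p = 7.83e-06). FLG, filaggrin, a fused-type S100 protein, fell under PGN (1.04 TPM in PGN+RVT and 6.37 TPM in PGN cells, -1.86 ± 0.11, limma adjusted p = 0.000215). It stayed below the filter under LA. The other tested fused-type gene of the 7, TCHH, was not called in either arm (limma adjusted p = 0.860 under LA and 0.790 under PGN). SPRR3 (-0.84 ± 0.080, limma adjusted p = 0.00112) and SPRR2A (-1.56 ± 0.16, limma adjusted p = 0.00128) fell under PGN. CRCT1 rose under both stimuli, by 1.43 ± 0.20 under LA (limma adjusted p = 0.00489) and 0.86 ± 0.095 under PGN (limma adjusted p = 0.00192). Of the tested SPRR genes, SPRR2A lies nearest to S100A9, and its LA difference was -0.47 ± 0.24 (limma adjusted p = 0.232). SPRR2D and SPRR3 stood at 0.20 ± 0.19 and 0.41 ± 0.16 under LA and were not called either (limma adjusted p = 0.532 and 0.128).

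**Figure D4:**
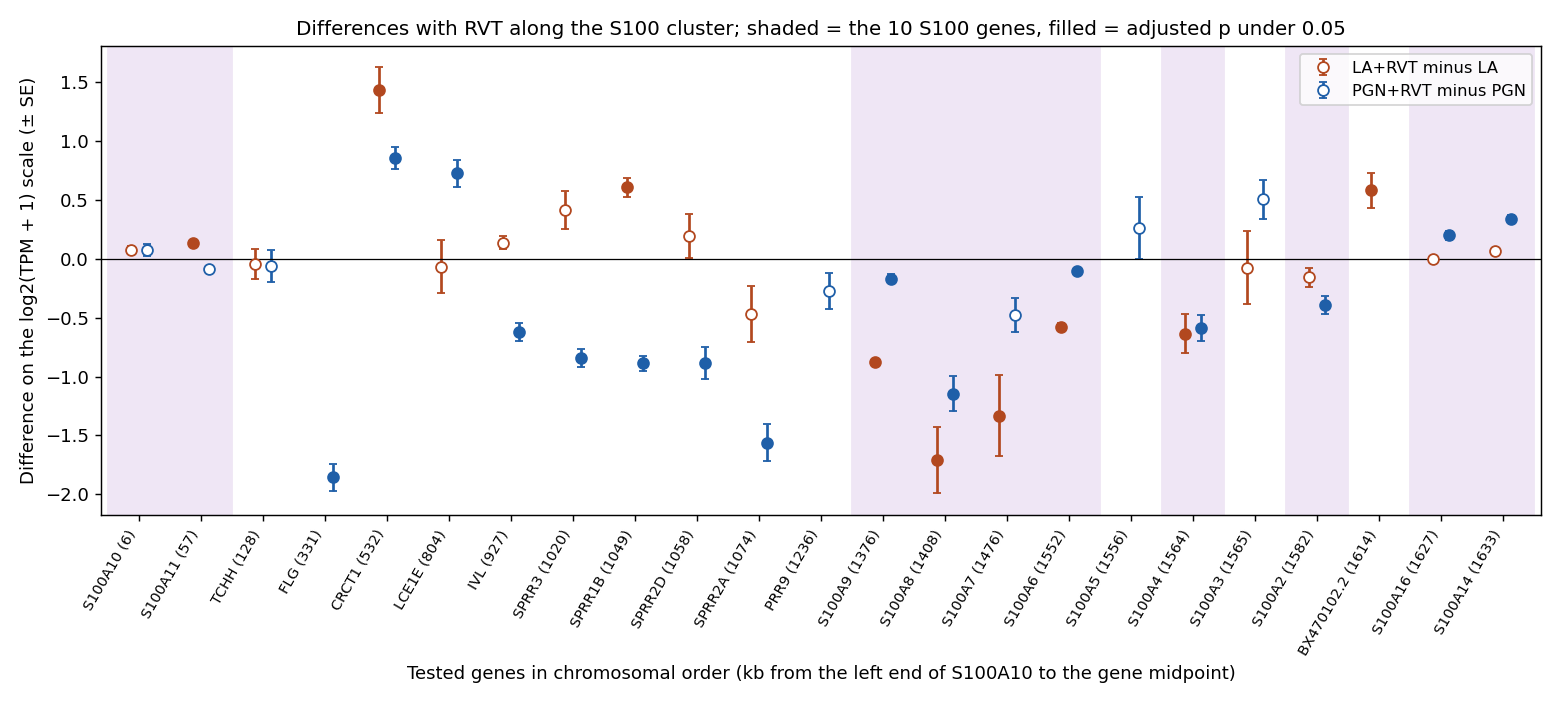
Log2 differences with RVT (y axis, bars are SE) for every tested gene from S100A10 to S100A14, in chromosomal order, with the distance in kb in brackets. Points are LA+RVT minus LA and PGN+RVT minus PGN, filled where called, and the 10 S100 genes are shaded. S100A9, S100A8 and S100A7 are at -0.88, -1.71 and -1.33 under LA, while SPRR1B is at 0.61 under LA and -0.89 under PGN.

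To place S100A7, S100A8 and S100A9 among all genes, the distance between pairs of log2 differences (LA arm, PGN arm) was taken over 11995 genes that averaged 5 TPM or more in some group, as a description over 4 groups of 3 libraries. The nearest to S100A9 (-0.88 and -0.17) were RN7SK (ENSG00000283293, -0.88 and -0.20, distance 0.0276), LY6D (-0.87 and -0.13, distance 0.0402) and NNMT (-0.91 and -0.11, distance 0.0663). LY6D encodes an epithelial surface protein and NNMT a nicotinamide methyltransferase. The nearest to S100A8 were AL669831.4 (-1.95 and -1.15), SERPINB3 (-1.86 and -0.93) and AC017083.2 (-1.57 and -0.91), at distances of 0.241 to 0.275. SERPINB3 is a serpin of squamous epithelia. The nearest to S100A7 were AP003392.2 (-1.31 and -0.51), CALML5 (-1.27 and -0.38) and AL162151.2 (-1.15 and -0.56), at distances of 0.0432 to 0.201. CALML5 encodes a calmodulin-like calcium-binding protein of skin. S100A8 lay farther from its nearest genes than the other 2 did. The SE of the LA difference was 0.34 for S100A7 and 0.28 for S100A8, above all of their distances. For S100A9 the SE was 0.028 under LA and 0.037 under PGN, of a size like its distances. Which genes are nearest is therefore not resolved by these libraries.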

How the data were processed

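RNA of SZ95 sebocytes was measured in 12 libraries, 3 per group, grouped and numbered by their titles. The authors deposited TPM in 1 table per stimulus, with 1 column per library. Per the submitters' processing notes, the tools were RSEM 1.3.1, HISAT2 2.1.0 and DESeq2 1.24.0 and the build was GRCh38.p13. Their roles and the annotation are not given there. The tables hold 60671 (LA) and 60666 (PGN) genes, and 1432 of the 60630 shared identifiers carry different names. Genes averaging 1 TPM or more over the libraries fitted were kept, values were taken as log2(TPM + 1), and groups were compared with limma 3.58.1 (R 4.3.3, trended prior variance, two-sided, Benjamini-Hochberg over all genes, threshold 0.05). Each arm was fitted on its 6 libraries, and the difference of the effects on 12. The scripts were tested on simulated data. The series design calls the replicates biological. Separate cultures are not stated, so the p-values describe only the spread among these libraries. The genes and lists were chosen with earlier results of these data known. Named genes were the 10 listed, other S100 genes at 1 TPM or more, list members with the smallest p (up to 4 per arm), and the 3 nearest by pattern. TLR4 was added after its values were seen, and SPRR2D, IL17RC and JUNB are also named outside this rule. Positions and coding sequences came from GENCODE 29, start regions from RefSeq (GRCh38.p14), and alignments were made with Biopython 1.88. No protein sequence was used here. Alternatives were a pseudocount of 0.1, no filter, a filter of 5 TPM, equalised library medians, a replicate block and leaving out each library. Same-numbered libraries did not deviate together (correlations -0.0702 to 0.0407).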

Additional observations from a re-analysis of the deposited data

Results flagged for a closer look

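RVT effects differed between the stimuli in the fit over 12 libraries for 5 of the 10 listed genes. They also differed for 2 of the 3 genes tested among 11 further S100 genes. Over all 15177 genes tested, 14.8% were called for this difference. As effect under PGN minus effect under LA, on the log2 scale, the values were 0.71 for S100A9, 0.47 for S100A6, 0.27 for S100A14, 0.20 for S100A16 and -0.22 for S100A11. The listed genes were chosen with these effects known, so these 5 values are descriptions. Outside the list the values were 0.88 for S100P (limma adjusted p = 4.43e-05) and 0.29 for S100A13 (limma adjusted p = 0.0107). The other lists, too, were chosen with earlier results of these data known, so these p-values are not an independent test. The 3 PGN+RVT libraries lay above the 3 PGN libraries for S100P, and the 3 LA+RVT libraries lay below the 3 LA libraries. Groups of 3 are too small for a test of single libraries that stand apart.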

How the results depend on the processing

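Without a filter on low genes, 3 of the listed genes were called under LA (6 with it) and 4 under PGN (7 with it). Leaving out 1 library gave 4 to 5 calls under LA, 3 to 9 under PGN and 5 to 6 for the difference of the effects (5 with all). The replicate block gave 5, 5 and 5, and since same-numbered libraries did not deviate together, this block has no support as a pairing. The total of 2426 called genes under LA was 1610 without a filter, 1502 with the block and 1428 to 1690 without 1 library, and that of 2277 under PGN was 1384 without a filter and 1095 to 1861 without 1 library. Equalised library medians lowered the median log2 difference of all genes by less than 0.1. Of 388 recomputed differences of single listed genes none of the called ones changed sign, and 13 moved by more than the spread between libraries. Of 711 recomputed values for 53 called differences of other genes, chosen after the data were seen, 612 kept their call and 99 lost it. Where no cause is given, the cause was not tested. TPM holds no depth, so the precision of low genes such as S100A7 cannot be bounded.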
